A study of Mus musculus with 12 samples.

Results

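The 10 genes below mark tissue macrophages or are made mainly by them, and were followed in distal colon and urinary bladder after deletion of Yap1 and Wwtr1 in smooth muscle. The members were chosen by name: Cd68, Adgre1, Csf1r, Mrc1, Lyve1, C1qa, C1qb, C1qc, Cd163 and Cx3cr1. All 10 of 10 had a row in each of the 12 libraries, out of 54532 genes, and all 10 passed the filter on low values in both tissues.

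Every mouse carried floxed alleles of Yap1, which encodes YAP, and of Wwtr1, which encodes TAZ. Y/T KO mice also carried Myh11-CreERT2, a tamoxifen-inducible Cre recombinase driven by a promoter active in smooth muscle, and Ctrl mice lacked Cre. The transgene sits on the Y chromosome, so the mice were male, and they were on a mixed background and 5 to 7 weeks old. Tamoxifen was given to Ctrl and Y/T KO mice alike, at 1 mg a day on 5 days, and tissue was taken on day 7 counted from the start of the injections. There were 3 libraries per tissue and genotype from 9 mice, of which 788 (Ctrl), 780 and 783 (both Y/T KO) gave both tissues. RNA came from homogenised whole tissue, so that fewer macrophages and less of an RNA per macrophage cannot be told apart in any value below, and Cre was not targeted to macrophages. Levels are in TPM, a unit scaled by transcript length, so that genes can be compared.

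Macrophages sense, engulf and digest dying cells, microbes and debris. In the wall of the gut they lie under the epithelium and in the muscle layers beside nerves and vessels, and they depend on the receptor encoded by Csf1r. C1q is the recognition part of the first complement component: it binds antibody complexes, dying cells and other surfaces and starts the classical complement pathway. Its chains A, B and C come from 3 neighbouring genes and in tissues are made largely by macrophages.

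As a check of the labels, Yap1 was lower in each of the 3 Y/T KO bladders (69.4 to 72.1 TPM) than in each Ctrl bladder (98.6 to 109.8 TPM), with a log2 fold change of -0.54 and an adjusted p of 0.0625. In the colon Yap1 overlapped between genotypes, at 45.8 to 54.9 TPM in Ctrl and 41.3 to 47.0 TPM in Y/T KO. Wwtr1 overlapped in both tissues, at 16.9 to 21.5 and 17.9 to 22.7 TPM in the colon and at 32.5 to 61.6 and 48.3 to 60.9 TPM in the bladder (Ctrl first). These values cover the whole gene, not the floxed exons, in whole tissue. Macrophage markers were present in both organs: the 10 members summed to 474.9 to 876 TPM in the colon libraries and to 996 to 1525 TPM in the bladder libraries. Smooth muscle markers (8 genes) summed to 8352 to 9278 TPM in Ctrl colon and 5519 to 6460 TPM in Y/T KO colon, and to 36920 to 50040 and 18850 to 34790 TPM in the bladder groups.

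**Figure D1:**
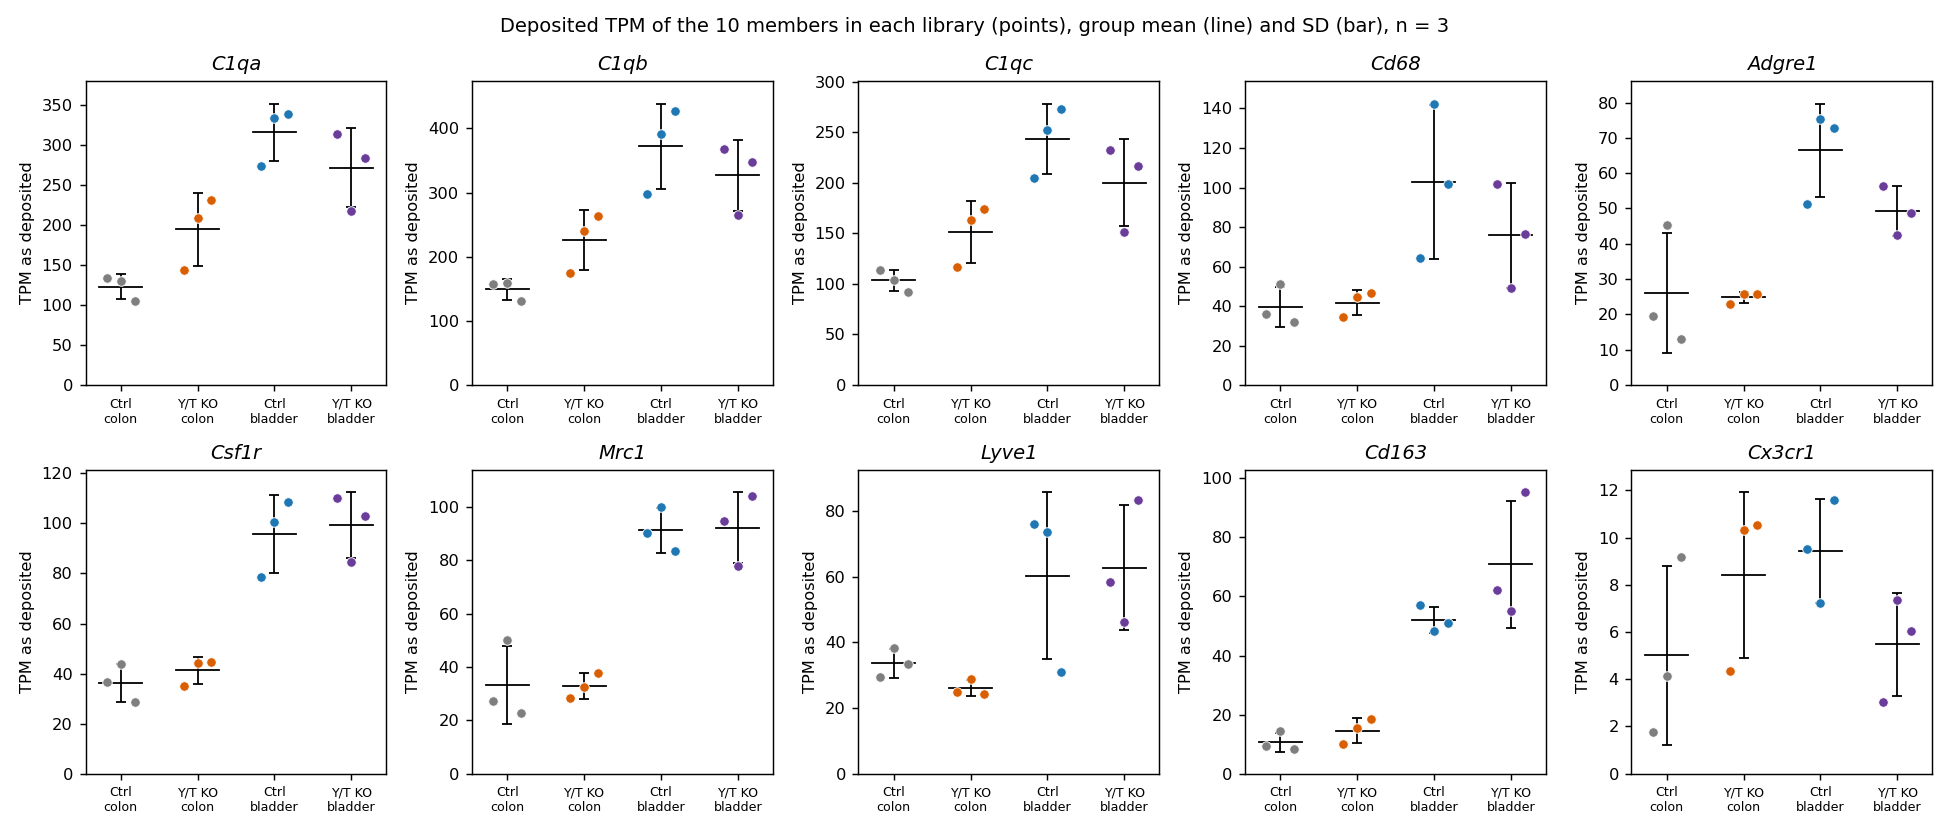
Deposited TPM (vertical axis, linear from 0, its own scale for each gene) of the 10 members in the 12 libraries, in the order Ctrl colon, Y/T KO colon, Ctrl bladder and Y/T KO bladder. Points are libraries, horizontal lines are group means and bars are 1 SD (n = 3). C1qa, C1qb and C1qc lie higher in each Y/T KO colon than in each Ctrl colon, Lyve1 lies lower in each, and no member separates the genotypes in the bladder.

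The C1q genes were the most abundant members in every group and varied together between mice. The order was C1qb, then C1qa, then C1qc, above Cd68 or Csf1r, in all 4 groups. C1qb and C1qa overlapped in level in every group, whereas C1qc did not overlap the next member in any. C1qa (ENSMUSG00000036887, chromosome 4, 136895917 to 136898803), C1qc (ENSMUSG00000036896, 136889804 to 136893065) and C1qb (ENSMUSG00000036905, 136880129 to 136886187) lie side by side on the minus strand of GRCm38. The RefSeq promoter windows of C1qb and C1qc are shown because the levels of these genes varied together, and that of Cd163 because it differed most between the organs. Each is the longest stretch of the 250 bases before the RefSeq start that holds no annotated exon, read 5′ to 3′ on the gene's strand. C1qb is chr4:136886201-136886450 (minus strand), C1qc is chr4:136893066-136893164 (minus strand) and Cd163 is chr6:124304429-124304650 (plus strand), all in RefSeq GRCm38.p6. Capitals mark the core bound by PU.1, a factor of the macrophage lineage, which reads GAGGAA and on the other strand reads TTCCTC. They also mark a half-site bound by MAF proteins, which act in macrophages too, and this reads TGCTGA and on the other strand reads TCAGCA. The 2 motifs do not overlap in these sequences.
C1qb: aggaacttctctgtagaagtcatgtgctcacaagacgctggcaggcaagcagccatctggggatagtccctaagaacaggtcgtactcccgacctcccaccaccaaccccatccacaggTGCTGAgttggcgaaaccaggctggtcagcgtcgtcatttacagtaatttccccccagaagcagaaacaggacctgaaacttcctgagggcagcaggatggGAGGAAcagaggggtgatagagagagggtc
C1qc: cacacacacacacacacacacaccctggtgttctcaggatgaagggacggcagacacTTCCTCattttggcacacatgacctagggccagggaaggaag
Cd163: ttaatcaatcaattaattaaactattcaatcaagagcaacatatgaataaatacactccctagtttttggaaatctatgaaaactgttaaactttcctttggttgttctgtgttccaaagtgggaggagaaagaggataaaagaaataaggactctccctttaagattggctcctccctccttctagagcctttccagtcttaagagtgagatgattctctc
Of the 10 members, 6 matched an entry of the promoter table. In their 250-base windows GAGGAA on either strand occurred 3 times for Mrc1, 1 time each for Cd68, C1qb and C1qc, and not for Cd163 and Cx3cr1, and it occurred in 23.3% of 32851 windows of that length. TGCTGA on either strand occurred for C1qb alone among the 6, and in 16.1% of all windows. These are letter matches and no measure of binding.

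In the colon the C1q genes had higher values in Y/T KO than in Ctrl mice, but none passed the test. C1qa, the A chain, stood at 134, 130.1 and 105 TPM in Ctrl colons (mice 788, 786 and 787) against 144, 209 and 231 TPM in Y/T KO colons (mice 759, 783 and 780). C1qb, the B chain, stood at 158, 159 and 131 TPM in the Ctrl against 174, 241 and 263 TPM in the Y/T KO colons, in the same order of mice. C1qc, the C chain, stood at 114, 104 and 92.4 TPM against 116, 163 and 174 TPM. For each chain the 3 Y/T KO libraries lay above the 3 Ctrl libraries, mouse 759 being the lowest of the Y/T KO mice and mouse 780 the highest. The lowest Y/T KO value of C1qc, 116 TPM, was close to the highest Ctrl value, 114 TPM. Group means were 123 ± 15.7 and 195 ± 45.5 TPM for C1qa (SD, n = 3), 149 ± 16.0 and 226 ± 46.3 TPM for C1qb, and 103 ± 10.7 and 151 ± 30.9 TPM for C1qc. The log2 fold change was 0.68 (SE 0.20, adjusted p = 0.404) for C1qa, 0.62 (SE 0.18, adjusted p = 0.403) for C1qb and 0.57 (SE 0.19, adjusted p = 0.445) for C1qc. Separation of this kind, every Y/T KO colon above every Ctrl colon, was met by 8.24% of the 17500 genes tested, so 3 of 10 members stands against that share, and these 3 share a locus and a profile.

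The bladder showed no such separation of the C1q genes. Ctrl bladders (mice 784, 785 and 788) held 274, 334 and 339 TPM of C1qa, and Y/T KO bladders (mice 782, 783 and 780) held 314, 217 and 283 TPM. C1qb stood at 298, 391 and 427 TPM in Ctrl against 368, 264 and 348 TPM in Y/T KO bladders. C1qc stood at 205, 252 and 273 TPM in Ctrl against 232, 152 and 217 TPM in Y/T KO bladders. For each chain the genotypes overlapped, mouse 784 being the lowest Ctrl and mouse 783 the lowest Y/T KO library. The log2 fold changes were -0.23 (SE 0.13) for C1qa, -0.19 (SE 0.15) for C1qb and -0.30 (SE 0.16) for C1qc, with adjusted p values of 0.464, 0.607 and 0.437. Mouse 783 thus had the second highest C1qa of the Y/T KO colons and the lowest of the Y/T KO bladders. The genotype by tissue interaction, the colon fold change minus the bladder fold change, was 0.88 for C1qa (95% interval 0.34 to 1.43, adjusted p = 0.235), 0.78 for C1qb (0.25 to 1.31, adjusted p = 0.260) and 0.84 for C1qc (0.29 to 1.4, adjusted p = 0.252). No member was called in that interaction, where 0.0552% of 16298 genes were, and 3 members, the C1q genes, had an unadjusted p under 0.05 by limma, as did 12.6% of the genes tested.

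The chains kept nearly fixed proportions while their level differed. C1qb over C1qa ranged from 1.09 to 1.26 over the 12 libraries, and C1qc over C1qa from 0.699 to 0.881, with the genotypes overlapping in both tissues. After log2 values were centred within the 4 groups, Pearson's r was 0.961 for C1qa with C1qb, 0.964 for C1qa with C1qc and 0.966 for C1qb with C1qc (Spearman's rho 0.923, 0.958 and 0.958, 12 libraries). The C1q level relative to Csf1r, the receptor on which macrophages depend, was not fixed. C1qa over Csf1r was 3.64, 2.98 and 3.68 in Ctrl colons (mice 788, 786 and 787) and 4.12, 4.71 and 5.19 in Y/T KO colons (mice 759, 783 and 780). The same ratio was 3.50, 3.32 and 3.12 in Ctrl bladders (mice 784, 785 and 788) and 2.84, 2.56 and 2.75 in Y/T KO bladders (mice 782, 783 and 780). All Y/T KO values thus lay above the Ctrl values in the colon and below them in the bladder, and C1qb and C1qc over Csf1r had the same pattern. Of single genes, 8.24% lay wholly above Ctrl in the colon and 11.4% wholly below Ctrl in the bladder. The share of ratios between other genes that separate in this way was not computed. C1qa over Cd68 also separated the colons, at 2.56 to 3.74 in Ctrl and 4.19 to 4.96 in Y/T KO, but overlapped in the bladder. C1qa over Adgre1 overlapped between genotypes in both tissues. Other members also shifted against Csf1r in 1 organ. Adgre1 over Csf1r was 0.654 to 0.748 in Ctrl against 0.474 to 0.512 in Y/T KO bladders, and overlapped in the colon. Lyve1 over Csf1r was 0.799 to 1.17 in Ctrl against 0.547 to 0.714 in Y/T KO colons, and overlapped in the bladder.

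**Figure D2:**
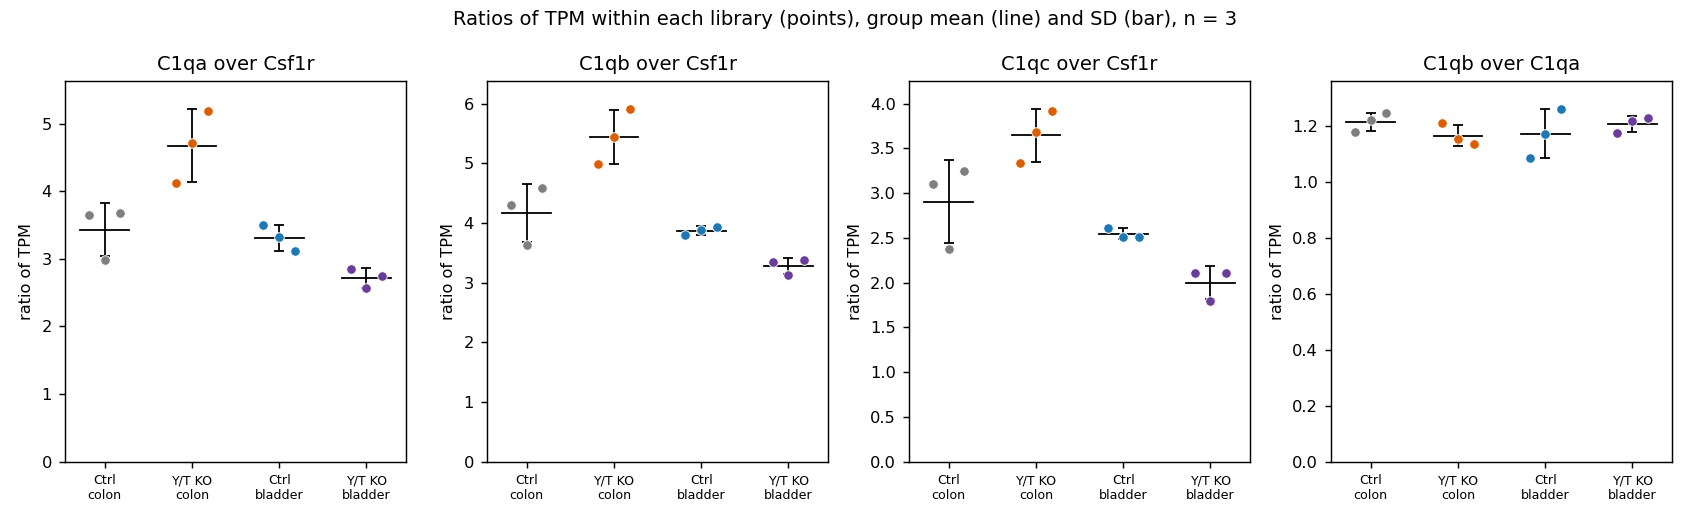
Ratio of TPM (vertical axis, no unit, from 0) of C1qa, C1qb and C1qc to Csf1r, and of C1qb to C1qa, in each of the 12 libraries by group. Points are libraries, lines are group means and bars are 1 SD (n = 3). The Csf1r ratios of the Y/T KO libraries lie above those of the Ctrl libraries in the colon and below them in the bladder, while C1qb over C1qa stays between 1.09 and 1.26.

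The general macrophage markers Cd68, Adgre1 and Csf1r showed no genotype difference that passed the test in either organ. Cd68 (ENSMUSG00000018774, chromosome 11, 69664213 to 69666153, minus strand) encodes a lysosomal glycoprotein. It stood at 35.8, 50.9 and 31.7 TPM in Ctrl colons (mice 788, 786 and 787) against 34.3, 44.4 and 46.6 TPM in Y/T KO colons (mice 759, 783 and 780). In Ctrl bladders (mice 784, 785 and 788) it stood at 64.2, 143 and 102 TPM, and in Y/T KO bladders (mice 782, 783 and 780) at 102, 49.1 and 76.2 TPM. The genotypes overlapped in both organs, and the Ctrl bladders differed among themselves by 2.22-fold. The log2 fold change was 0.13 (SE 0.19, adjusted p = 0.831) in the colon and -0.43 (SE 0.34, adjusted p = 0.597) in the bladder.

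Adgre1 (ENSMUSG00000004730, chromosome 17, 57358691 to 57483527, plus strand) encodes F4/80, the surface protein by which mouse macrophages are commonly stained. It stood at 19.6, 45.4 and 13.1 TPM in Ctrl colons against 23.0, 25.8 and 25.7 TPM in Y/T KO colons, the mice in the order given for Cd68. The 3 Y/T KO colons differed by 1.12-fold and lay inside the 3.47-fold range of the Ctrl colons, which mouse 786 set at the top. The colon log2 fold change of 0.17 (SE 0.37, adjusted p = 0.902) became 0.60 without mouse 786 (adjusted p = 0.607) and -0.19 without mouse 787 (adjusted p = 0.874). The Ctrl bladders held 51.3, 75.3 and 72.9 TPM of Adgre1 and the Y/T KO bladders 56.5, 42.6 and 48.8 TPM. The lowest Ctrl bladder, mouse 784, overlapped the Y/T KO range. Adgre1 was the only member with an unadjusted p under 0.05 in the bladder, where 14.8% of genes had one, with a log2 fold change of -0.42 (SE 0.16, adjusted p = 0.298).

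Csf1r (ENSMUSG00000024621) encodes the receptor for the growth factors CSF1 and IL-34, on which macrophage survival depends. It stood at 36.8, 43.7 and 28.5 TPM in Ctrl colons against 34.9, 44.3 and 44.5 TPM in Y/T KO colons. The Ctrl bladders held 78.5, 100.6 and 109 TPM of it and the Y/T KO bladders 110.2, 84.7 and 103 TPM. Csf1r overlapped between genotypes in both organs, with group SDs of 5.52 to 15.6 TPM on means of 36.3 to 99.3 TPM. The log2 fold change was 0.23 in the colon (95% interval -0.17 to 0.64) and 0.05 in the bladder (95% interval -0.26 to 0.37), with adjusted p values of 0.685 and 0.877. Of its ligands, Il34 stood at 14.3 to 16.0 TPM in Ctrl colons and at 21.5 to 22.2 TPM in Y/T KO colons, without overlap (log2 fold change 0.57, adjusted p = 0.311). Every Y/T KO colon lay above every Ctrl colon for 8.24% of all genes tested. Csf1 overlapped between genotypes in both organs, at 18.2 to 25.7 TPM in the colon libraries and 27.5 to 48.5 TPM in the bladder libraries.

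The endocytic receptors Mrc1, Lyve1 and Cd163 mark macrophages that take up glycoproteins, hyaluronan and haemoglobin, and none was called for genotype. Mrc1 (ENSMUSG00000026712, chromosome 2, 14229392 to 14332057, plus strand) encodes the mannose receptor. It stood at 27.3, 49.96 and 22.7 TPM in Ctrl colons (mice 788, 786 and 787) against 28.3, 32.6 and 37.9 TPM in Y/T KO colons (mice 759, 783 and 780). In Ctrl bladders (mice 784, 785 and 788) it stood at 90.3, 100 and 83.4 TPM, and in Y/T KO bladders (mice 782, 783 and 780) at 94.7, 77.8 and 104 TPM. The genotypes overlapped in both organs, with mouse 786 the highest colon. The bladder log2 fold change of 0.01 (95% interval -0.30 to 0.32, adjusted p = 0.982) was the smallest of the 10 members, and that in the colon was 0.10 (-0.50 to 0.69, adjusted p = 0.919).

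Lyve1 (ENSMUSG00000030787, chromosome 7, 110850607 to 110863239, minus strand) encodes a hyaluronan receptor of macrophages near vessels and also of lymphatic endothelium. It was the only member with a lower fitted log2 estimate in Y/T KO colon, and it stood at 29.4, 38.2 and 33.4 TPM in Ctrl colons against 24.9, 28.9 and 24.4 TPM in Y/T KO colons, in the order of mice given for Mrc1. The groups did not overlap, though the highest Y/T KO value, 28.9 TPM, lay just under the lowest Ctrl value, and 7.87% of the genes tested had every Y/T KO colon below every Ctrl colon. The log2 fold change was -0.33 (SE 0.15, adjusted p = 0.525). The Ctrl bladders held 76.1, 73.7 and 31.1 TPM of Lyve1 and the Y/T KO bladders 58.5, 46.3 and 83.4 TPM, with a log2 fold change of 0.12 (adjusted p = 0.912). Ctrl mouse 788 was the lowest bladder, and without it the log2 fold change was -0.32 (adjusted p = 0.619). That bladder also held 66.3 TPM of Ccl21a, a chemokine of lymphatic endothelium, against 5.30 to 26.6 TPM in the other 5 bladders, and the 6 lymphatic markers summed to 26.6 to 36.6 TPM in Ctrl and 20.8 to 39.0 TPM in Y/T KO colons, and to 43.2 to 88.5 TPM in Ctrl and 36.1 to 61.6 TPM in Y/T KO bladders, with Pdpn listed at 0 in all 12 libraries. In the colon 1 of the 5 lymphatic markers tested was higher and 4 were lower in Y/T KO mice, none called, and their part in the Lyve1 values was not tested.

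Cd163 (ENSMUSG00000008845, chromosome 6, 124304656 to 124330527, plus strand) encodes the scavenger receptor for haemoglobin bound to haptoglobin. It stood at 9.42, 14.3 and 8.22 TPM in Ctrl colons against 9.90, 15.5 and 18.5 TPM in Y/T KO colons. In Ctrl bladders it stood at 57.0, 48.2 and 50.9 TPM, and in Y/T KO bladders at 62.2, 55.1 and 95.3 TPM. The genotypes overlapped in each organ, and mouse 780 was the highest Y/T KO library in both. The log2 fold change was 0.48 (SE 0.28, adjusted p = 0.611) in the colon and 0.41 (SE 0.21, adjusted p = 0.410) in the bladder, and the interaction was 0.05 (95% interval -0.74 to 0.85). Without mouse 780 the bladder value was 0.18 (adjusted p = 0.647).

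Cx3cr1 (ENSMUSG00000052336, chromosome 9, 119901616 to 120069879, minus strand) encodes the fractalkine receptor of monocytes and of long-lived gut macrophages, and it was the lowest member in all 4 groups. Its coverage per base was 2.61 to 15.4, against 93.7 to 679 for the C1q genes and 7.87 to 205 for the other 6 members. Cx3cr1 stood at 1.75, 4.12 and 9.18 TPM in Ctrl colons (mice 788, 786 and 787) against 4.34, 10.3 and 10.5 TPM in Y/T KO colons (mice 759, 783 and 780). Ctrl bladders (mice 784, 785 and 788) held 9.49, 7.21 and 11.6 TPM and Y/T KO bladders (mice 782, 783 and 780) held 3.06, 7.35 and 6.02 TPM. The Ctrl colons spanned 5.25-fold and the genotypes overlapped in both organs. Its log2 fold changes were larger in size than those of the other 9 members in both organs and had opposite signs, 0.96 (SE 0.63, adjusted p = 0.651) in the colon and -0.84 (SE 0.37, adjusted p = 0.358) in the bladder. The interaction of 1.77 had a 95% interval from just under 0 to 3.55 (adjusted p = 0.396). The fractalkine gene Cx3cl1 overlapped between genotypes in both organs, at 53.7 to 71.7 TPM in the colon libraries and 3.14 to 25.0 TPM in the bladder libraries.

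**Figure D3:**
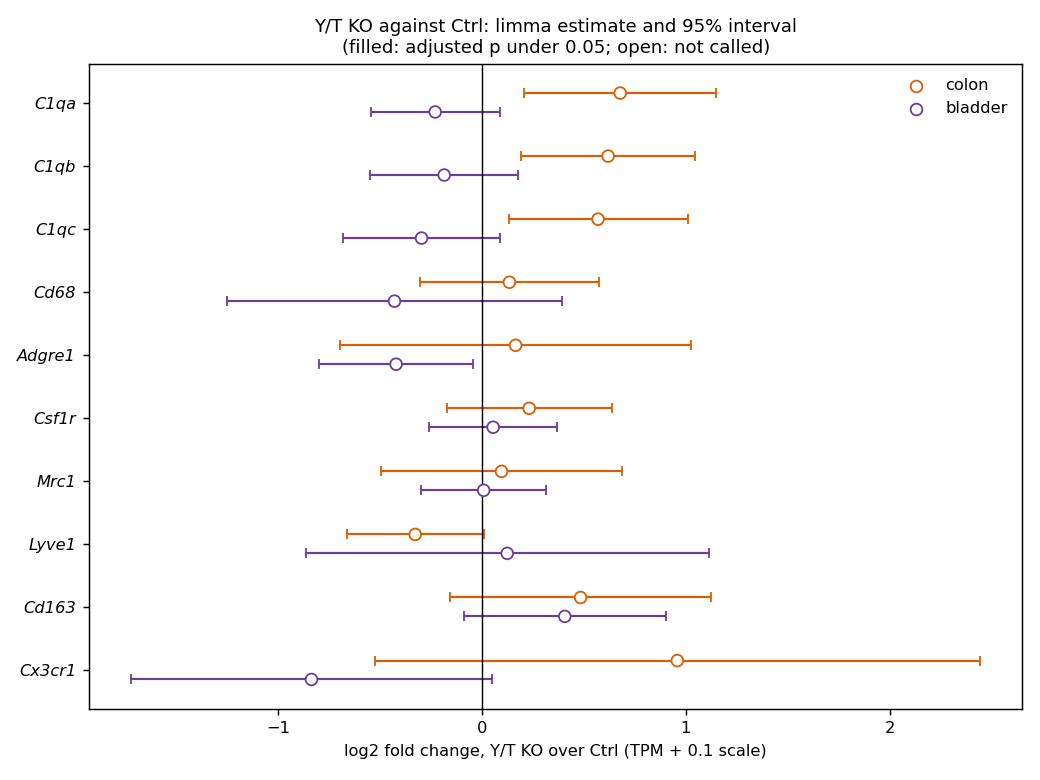
Log2 fold change of Y/T KO over Ctrl (horizontal axis, on TPM plus 0.1) for the 10 members, in colon (orange) and bladder (purple). Circles are limma estimates from 3 against 3 libraries and bars are 95% intervals; open circles mark an adjusted p of 0.05 or more. All circles are open, and in the colon the intervals of C1qa, C1qb and C1qc exclude 0 before adjustment, as does that of Adgre1 in the bladder.

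Over the members together, 9 of 10 had a higher and 1 a lower colon estimate in Y/T KO mice, with a median log2 fold change of 0.36 against 0.01 over the 17500 genes tested. In the bladder 4 were higher and 6 lower, with a median of -0.21 against 0.00 over 18237 genes. Of all genes tested, 50.85% had a higher estimate in Y/T KO colon and 50.24% in Y/T KO bladder. The members are not separate observations, since the C1q genes share a locus and a profile. Mean TPM in the colon was slightly lower in Y/T KO than in Ctrl mice for Adgre1 (24.8 against 26.0) and Mrc1 (32.9 against 33.3), although their fitted estimates were higher. No member was called by limma at an adjusted p under 0.05 in either organ, where 0.137% of the colon genes and 0.302% of the bladder genes were called, and 3 members in the colon and 1 in the bladder had an unadjusted p under 0.05. The share of all genes with such a p was 9.73% for colon and 14.8% for bladder. No member lay wholly above or wholly below Ctrl in the bladder, where 10.6% and 11.4% of genes did. An exact permutation test of 3 against 3 libraries cannot give a two-sided p under 0.1, so it was not used for single members.

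Single libraries stood out for several members. Mouse 786 was the highest of the 3 Ctrl colons for 7 of 10 members, and mouse 787 the lowest for 8; among Y/T KO colons mouse 759 was the lowest for 9 and mouse 780 the highest for 8. The colon of mouse 786 also had a higher sum over 11 genes listed for peritoneal macrophages, a list chosen after its values were seen. That sum was 175 TPM there and 108 to 133 TPM in the other 5 colons. Naip1 of this list alone stood at 87.2 TPM there and at 65.2 to 75.3 TPM in the other 5. It reached at most 0.693 TPM in the bladder libraries, so the colon sum rests largely on 1 gene and does not gauge these macrophages. Arg1, an arginine-degrading enzyme of activated macrophages, stood at 265 TPM in that colon and at 3.73 to 60.3 TPM in the other 5. The bladder of Ctrl mouse 785, which had the highest Cd68, had 1036 TPM of Arg1 against 27.8 to 438 TPM in the other bladders, and 259 TPM over the same 11 genes against 90.8 to 173 TPM. The Y/T KO colon of mouse 780, highest in each C1q chain, held 93.5 TPM of the neutrophil gene S100a9 against 0 to 25.1 TPM in the other colons. The part of peritoneal macrophages or neutrophils in the member values was not tested. Without mouse 780 the colon log2 fold change of C1qa was 0.53 (adjusted p = 0.808), and without mouse 759 it was 0.89 (adjusted p = 0.133).

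More members were called between the organs than between the genotypes. In Ctrl mice 8 of 10 were called lower in colon than in bladder by limma, where 25.3% of 19773 genes were called lower in colon. Cd163 differed most, with a log2 difference (colon minus bladder) of -2.06 (SE 0.26, adjusted p = 4.59e-05), from a mean of 10.7 ± 3.23 TPM in Ctrl colon and 52.1 ± 4.53 TPM in Ctrl bladder (SD, n = 3). Mrc1 (-1.27), Adgre1 (-1.27), Csf1r (-1.15), C1qa (-1.10), Cd68 (-1.07), C1qb (-1.05) and C1qc (-0.97) lay close together, with adjusted p values from 8.62e-05 to 0.00915. Lyve1 (-0.48, adjusted p = 0.238) and Cx3cr1 (-0.91, adjusted p = 0.210) were not called. Their Ctrl groups overlapped between organs, Lyve1 through the bladder of mouse 788 at 31.1 TPM and Cx3cr1 through the colon of mouse 787 at 9.18 TPM. Without those libraries in turn Lyve1 was called, with -0.92 (adjusted p = 0.00358), and so was Cx3cr1, with -1.52 (adjusted p = 0.0315).

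In Y/T KO mice 4 of 10 members were called lower in colon, where 25.6% of genes were: Cd163 (-2.0, adjusted p = 5.72e-05), Mrc1 (-1.21, adjusted p = 0.000722), Csf1r (-0.99, adjusted p = 0.000255) and Lyve1 (-0.95, adjusted p = 0.0261). The C1q genes were not called: the difference was -0.22 for C1qa (95% interval -0.60 to 0.17, adjusted p = 0.333), -0.26 for C1qb (-0.64 to 0.11, adjusted p = 0.221) and -0.13 for C1qc (-0.52 to 0.27, adjusted p = 0.581). Cd68 (-0.53, adjusted p = 0.147), Adgre1 (-0.70, adjusted p = 0.0840) and Cx3cr1 (0.86, adjusted p = 0.230) were also not called. C1qa in the highest Y/T KO colon, 231 TPM, exceeded the lowest Y/T KO bladder, 217 TPM, whereas the Ctrl organs were 134 TPM at most and 274 TPM at least. The test of whether the organ difference itself changed with genotype is the interaction given above, which called none of the members. With TPM as deposited, C1qb (-0.54, adjusted p = 0.0324) and Adgre1 (-0.98, adjusted p = 0.0367) were also called. Cell types other than macrophages differed between the organs as well: epithelial markers (5 genes) summed to 6473 to 9421 TPM in the colon libraries and 1025 to 1415 TPM in the bladder libraries, and fibroblast markers (5 genes) to 1213 to 1728 and 6510 to 8895 TPM. The part of these differences in the members' TPM was not tested.

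**Figure D4:**
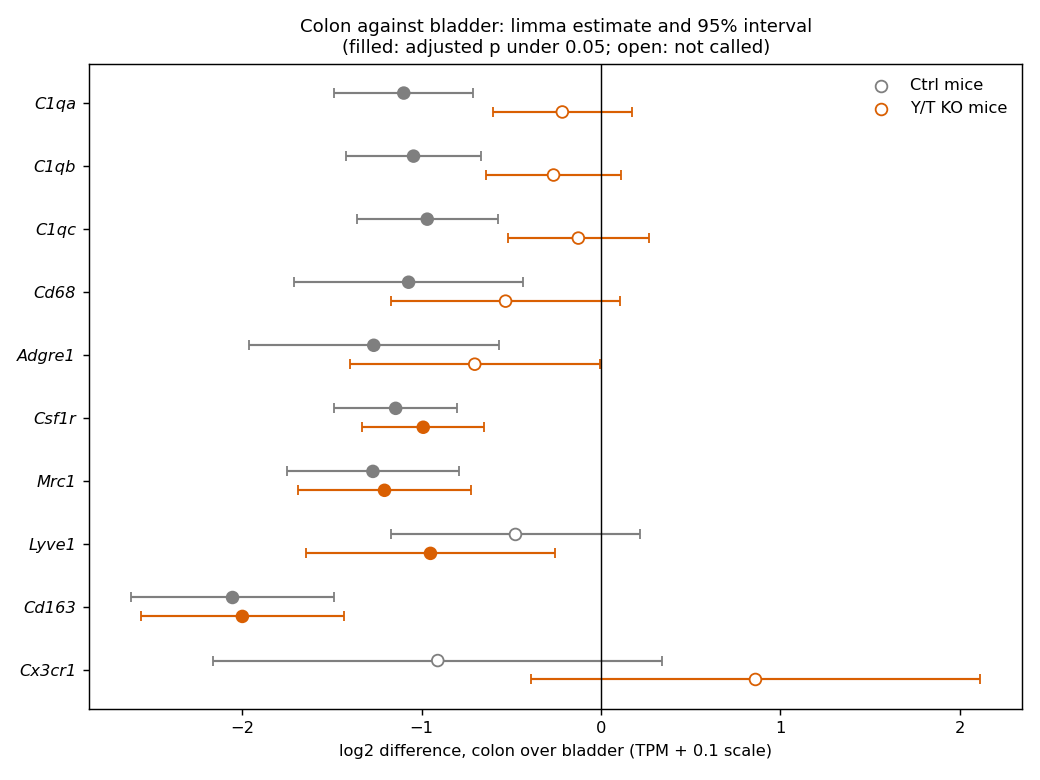
Log2 difference of colon minus bladder (horizontal axis, on TPM plus 0.1) for the 10 members in Ctrl mice (grey) and Y/T KO mice (orange). Circles are limma estimates and bars are 95% intervals; filled circles mark an adjusted p under 0.05. In Ctrl mice 8 circles are filled and in Y/T KO mice 4, and Cd163 lies near -2 in both.

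Within groups the members did not vary as 1 block. Over 12 libraries, with log2 values centred within groups, Csf1r followed C1qb (r = 0.870), C1qa (0.822) and Cd68 (0.796), and Adgre1 followed Mrc1 (0.836). For Adgre1 and Mrc1 the r was 0.948 over the 6 colon libraries and 0.123 over the 6 bladder libraries, and Ctrl mouse 786 had the highest colon value of both. Mrc1 and Cd163 had an r of 0.763. Over the 12 libraries pooled, the highest r of Lyve1 was 0.374, with Mrc1, and that of Cx3cr1 was 0.241, with Cd163. Within organs these values differed: Lyve1 with Mrc1 had an r of 0.208 over colon and 0.884 over bladder libraries, and Cx3cr1 with Cd68 an r of 0.137 over colon and -0.763 over bladder libraries. These values describe the spread between mice, and the points are not all independent, since 3 mice gave 2 libraries each and values of a library share its scaling.

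**Figure D5:**
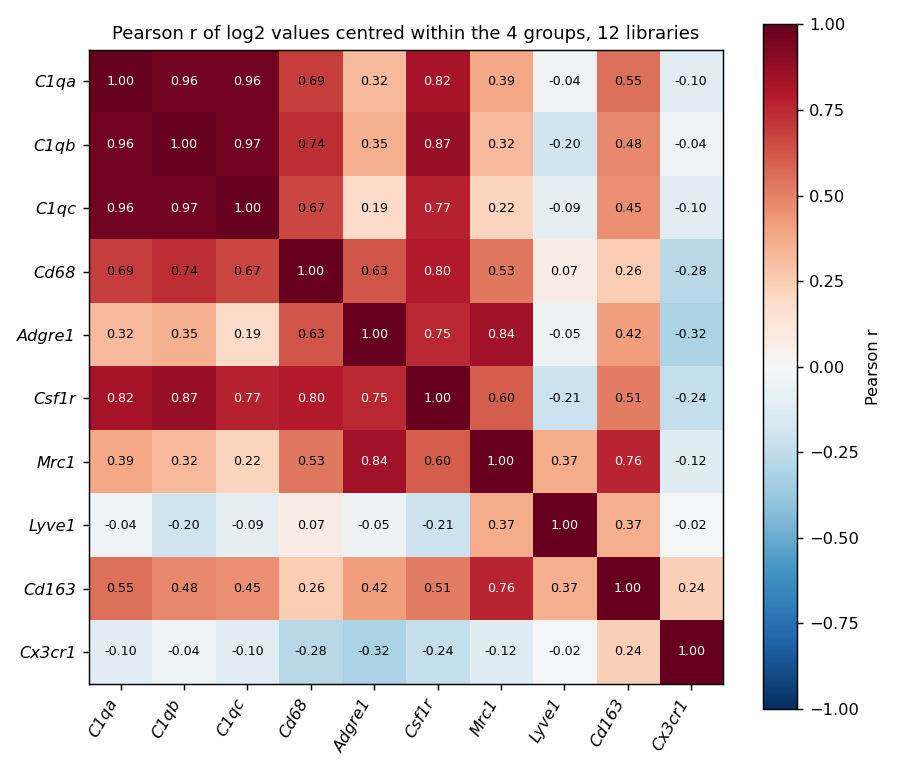
Pearson's r between members (both axes, the 10 genes) over the 12 libraries after log2 values were centred within each of the 4 groups; red is positive, blue is negative. The 3 C1q genes form a block of 0.96 to 0.97, and the rows of Lyve1 and Cx3cr1 hold no value above 0.38 apart from the diagonal.

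The genes most like each profile over all 12 libraries were picked by the highest centred r among 16288 genes. For the mean of the C1q genes these were Dennd1c (r = 0.959), Srrm2 (0.958), Arhgap27 (0.957), Map3k6 (0.950) and Safb2 (0.943). For the mean of Cd68, Adgre1 and Csf1r they were Srgap2 (0.954), Ccrl2 (0.953), Gm42979 (0.949), Stac2 (0.942) and Nckap1l (0.938). For the mean of Mrc1, Lyve1 and Cd163 they were 9130604C24Rik (0.947), Ighv1-12 (0.912), Snord66 (0.897), Irf4 (0.894) and Sdad1 (0.881). With so many genes and 12 libraries such values are a description: the gene ranked 100 still had an r of 0.841, 0.824 and 0.752 for the 3 profiles.

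Other macrophage genes gave no call for genotype either. Of 32 further macrophage genes, 31 were tested in the colon, where 23 were higher and 8 lower in Y/T KO mice with a median log2 fold change of 0.22, and none was called. The 5 with an unadjusted p under 0.05 were all higher, and are named after their values were seen: Fcer1g (0.84), Fcgr1 (0.90), Aif1 (0.70), Spi1 (0.71), which encodes PU.1, and Tyrobp (0.56). For these 5 each Y/T KO colon lay above each Ctrl colon, mouse 780 being the highest. Spi1 stood at 7.57, 10.1 and 15.9 TPM (mice 759, 783 and 780) against 6.23 to 7.499 TPM in Ctrl, a narrow gap at mouse 759. Tyrobp in mouse 759, at 97.8 TPM, was likewise close to the highest Ctrl colon, at 96.5 TPM. As background, such a p was reached by 9.73% of the 17500 colon genes, and this upward separation by 8.24%. In the bladder 8 of 32 were higher and 24 lower, with a median of -0.15, none was called, and the 5 with an unadjusted p under 0.05 (Ms4a7, Pf4, Siglec1, Hpgds and Stab1) were lower. Over all genes tested in the bladder, 14.8% had such a p. Of the 4 most abundant genes of this list, Lyz2 (lysozyme), Ctss (a lysosomal protease), Gas6 (a ligand of the receptors that bind dying cells) and Cbr2, all overlapped between genotypes in both organs, with colon log2 fold changes of 0.09, -0.15, 0.14 and -0.31.

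Genes of the complement cascade and its regulators, 45 in all, gave no call for genotype. Of 32 tested in the colon, 17 were higher and 15 lower in Y/T KO mice, with a median log2 fold change of 0.03, and of 35 tested in the bladder 20 were higher and 15 lower, with a median of 0.05. None was called in either organ. An unadjusted p under 0.05 was reached by Itgax (higher) and Cd59a (lower) in Y/T KO colon, and by C4b, C6, C8g and C1qbp (higher) and Clu, Cfb and Cfp (lower) in Y/T KO bladder, all named after their values were seen. By comparison, that level was reached by 9.73% of the 17500 colon genes and 14.8% of the 18237 bladder genes. C1s1, which encodes a protease of the first complement component, stood at 128 to 191 TPM in Ctrl and 129 to 147 TPM in Y/T KO colons, and C3, the central component, at 203 to 447 and 119.9 to 302 TPM. Serping1, the inhibitor of the C1 proteases, stood at 171 to 227 and 179 to 204 TPM, and Cfd, factor D of the alternative pathway, at 27.9 to 129.5 and 21.6 to 36.9 TPM. For these 4 the genotypes overlapped in both organs. In Ctrl mice 25 of the 36 complement genes tested were called lower in colon than in bladder, C1s1, C3, Serping1 and Cfd among them, and 3 were called higher. Of all genes tested, 25.3% were called lower in Ctrl colon.

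Genes that handle haemoglobin and iron were listed beside Cd163, which takes up haemoglobin. Of these 9 none was called in either organ, and Ftl1 alone had an unadjusted p under 0.05 in each. Of all genes tested, 9.73% had such a p in the colon and 14.8% in the bladder. Every Y/T KO library lay above every Ctrl library for 8.24% of genes in the colon and 10.6% in the bladder. Ftl1, the ferritin light chain, stood at 355 to 511 TPM in Ctrl and 565 to 1076 TPM in Y/T KO colons, and at 419.6 to 585 and 1163 to 1869 TPM in the bladder, without overlap in either organ (log2 fold change 1.06, adjusted p = 0.364 in colon, and 1.39, adjusted p = 0.0629 in bladder). Fth1, the heavy chain, did not follow it, with -0.33 (adjusted p = 0.602) and -0.21 (adjusted p = 0.497). Hp, which encodes haptoglobin, and the iron exporter Slc40a1 overlapped between genotypes in both organs. Slc40a1 was higher in colon than in bladder of Ctrl mice (log2 difference 2.74, adjusted p = 3.24e-07), opposite in sign to Cd163.

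Among 12 endocytic and scavenger receptors beside Mrc1 and Cd163, 6 of 11 tested were higher and 5 lower in Y/T KO colon, and 5 of 12 were higher and 7 lower in Y/T KO bladder, with none called and 1 in each organ at an unadjusted p under 0.05 (Clec4n, higher, and Stab1, lower). The share of all genes with such a p was 9.73% in the colon and 14.8% in the bladder. Stab1, an endocytic receptor of macrophages and sinusoidal endothelium, stood at 52.1, 57.5 and 64.2 TPM in Ctrl bladders against 48.0, 40.8 and 44.0 TPM in Y/T KO bladders, without overlap (log2 fold change -0.39, adjusted p = 0.162), and overlapped in the colon. Cd36, Colec12 and Scarb1 overlapped between genotypes in both organs. In Ctrl mice 8 of these 12 receptors were called lower in colon and none higher, and in Y/T KO mice 9 were called lower and 1 higher. The share of all genes called lower in colon was 25.3% in Ctrl and 25.6% in Y/T KO mice. Of 17 genes of macrophage activation, 7 of 14 tested were higher in Y/T KO colon and 4 of 16 in Y/T KO bladder, none called and none at an unadjusted p under 0.05. Retnla, which encodes a protein of alternatively activated macrophages, stood at 110.3 to 865 TPM in Ctrl bladders and 1054 to 2622 TPM in Y/T KO bladders, without overlap (log2 fold change 2.07, SE 0.85, adjusted p = 0.342). Of all genes tested in the bladder, 10.6% lay wholly above Ctrl, as Retnla did, and 11.4% wholly below, as Stab1 did. The Ctrl bladder with 110.3 TPM was that of mouse 788, which was also the lowest in Lyve1 and in adipocyte markers. These markers (5 genes) summed to 1512 to 2415 TPM in Ctrl and 2186 to 3077 TPM in Y/T KO bladders. In the colon they summed to 119 to 238 TPM in Ctrl and 124 to 143 TPM in Y/T KO mice. The part of adipocytes in the values of Retnla, and of Cfd and Hp above, was not tested.

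Leukocytes in general were gauged beside the members. Of 6 pan-leukocyte genes 5 were higher in Y/T KO colon (median log2 fold change 0.35) and 5 were lower in Y/T KO bladder (median -0.45), none called and 1 and 2 of them at an unadjusted p under 0.05 (Coro1a, and Ptprc with Coro1a), with sums of 121 to 185 TPM in Ctrl and 148 to 218 TPM in Y/T KO colons and of 362 to 535 and 313 to 492 TPM in the bladder. An unadjusted p under 0.05 was met by 9.73% of all colon and 14.8% of all bladder genes tested. Monocyte markers (7 genes) gave a median of 0.06 in colon and -0.17 in bladder and their sums overlapped between genotypes in both organs. In the colon that sum was carried by Plac8, at 1425 to 2614 TPM. T cell markers (6 genes) summed to 11.5 to 12.5 TPM in Ctrl and 15.4 to 19.7 TPM in Y/T KO colons, without overlap. None of the 5 T cell genes tested in the colon was called. Of these 5, 4 were higher with an unadjusted p under 0.05 by limma, and 3 had every Y/T KO colon above every Ctrl colon. Of all single genes, 8.24% separated upward there. Dendritic cell markers (8 genes) summed to 8.13 to 9.09 TPM in Ctrl and 9.01 to 13.2 TPM in Y/T KO colons, and neutrophil markers (8 genes) to 136 to 199.5 and 115 to 357 TPM. Ly6g alone stood at 112 to 201 TPM in the colon libraries and at most 0.299 TPM in the bladder libraries. B cell markers (5 genes) summed to 233 to 759 TPM in Ctrl and 221 to 593 TPM in Y/T KO colons. Jchain carried that sum, at 222 to 737 TPM in Ctrl and 205 to 581 TPM in Y/T KO colons. Of the 5 genes, 1 was higher and 4 were lower in Y/T KO colon (median log2 fold change -0.73), none called. The part of these cells in the C1q values of the colon was not tested.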

How the data were processed

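RNA of whole distal colon and urinary bladder was sequenced as stranded polyadenylated libraries (12 libraries from 9 mice, 4 groups of 3, grouped by the labels). The submitters' processing notes name bcl2fastq, FastQC, HISAT2, StringTie and DESeq2, without versions, and the GRCm38 build. The deposited tables give, per gene, TPM made by the authors, which are normalised for transcript length and have an equal sum in every library. They also give the deposited FPKM and the deposited coverage, the mean read depth per base. The read counts behind the study's own tests were not used here, so counting error is unknown, and differences were judged by the spread between mice. Aligned bases, from the ratio of coverage to FPKM, were 2.80 to 3.94 gigabases per library.

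Rows of a gene ID were summed, leaving 54532 genes. Median-of-ratios size factors were computed and TPM rescaled by them (0.960 to 1.10 within a tissue, 0.872 to 1.13 over 12 libraries) and tested as log2(value + 0.1) with limma 3.58.1 (R 4.3.3; lmFit, eBayes with trend and robust) with Benjamini-Hochberg adjustment over all genes tested. Fold changes on this scale understate those of low genes. Each genotype comparison used the 6 libraries of a tissue and genes of at least 0.5 TPM in 3 of them; the interaction and the organ comparisons used all 12. A gene was called at an adjusted p under 0.05. All levels and ranges in the text are deposited TPM. Correlations used log2 values centred within the 4 groups.

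The 10 members, and the gene lists around them, were chosen with earlier results of these data known, and a list of 11 peritoneal macrophage genes after its values were seen. Named from each list were the genes called for genotype (there were none) and up to 4 of the highest mean TPM; exceptions are marked or given as sample values. Libraries stand for single mice, so p values measure the spread between mice. Mice 788, 783 and 780 gave both organs, so the labels pair these libraries; same-mouse deviations from the group means correlated at -0.02 to 0.09 over 16298 genes. The symbol Ccl21a has 2 gene IDs, and that of higher mean was used. Promoter sequences are those of RefSeq GRCm38.p6, of which 6 of 10 members had an entry. Alternatives tried were other pseudocounts, other filters, TPM as deposited, FPKM, plain eBayes, all 12 libraries in one fit, a mouse block, and each library left out in turn. No alternative tool for counts was run, because TPM are not counts.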

Additional observations from a re-analysis of the deposited data

Results flagged for a closer look

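The ratios of C1qa, C1qb and C1qc to Csf1r were singled out because every Y/T KO library lay above every Ctrl library in the colon and below every Ctrl library in the bladder. The mean of C1qa over Csf1r was 3.43 in Ctrl colon and 4.68 in Y/T KO colon, against 3.31 in Ctrl bladder and 2.72 in Y/T KO bladder. For C1qb over Csf1r the means were 4.17 and 5.44 in the colon and 3.87 and 3.28 in the bladder. For C1qc over Csf1r they were 2.90 and 3.64 in the colon and 2.55 and 2.0 in the bladder. The difference between the organs in these ratios was not tested, and how often ratios between other genes separate in this way was not computed. The C1q chains share a profile, so the ratios are not separate observations, and 13 ratios between members were computed.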

How the results depend on the processing

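No member was called for genotype or for the interaction under any alternative run, and the 8 members called lower in Ctrl colon were 8 or 9 under each; in Y/T KO mice 4 members became 3 to 6. Over 880 member values, 850 kept direction and side of the threshold, 20 changed sign, 3 lost and 7 gained a call. The sign changes concerned estimates near 0 and came when 1 library was left out, with ranges of -0.19 to 0.60 for Adgre1 and -0.10 to 0.37 for Mrc1 in colon. In bladder the ranges were -0.063 to 0.14 for Csf1r, -0.08 to 0.10 for Mrc1 and -0.32 to 0.37 for Lyve1. For the interaction they were -0.14 to 0.34 for Mrc1 and -0.14 to 0.31 for Cd163, and for the organ difference in Y/T KO mice -0.28 to 0.050 for C1qc. Lyve1 lost its call there without Y/T KO colon 759 (adjusted p = 0.0644), Y/T KO colon 780 (0.0702) or Y/T KO bladder 780 (0.0999). With mouse as a replicate block the interaction of C1qa was 0.89 (adjusted p = 0.208), and the block changed no call of a member. The cause of these changes was not tested.

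Over all genes the 10 higher and 14 lower calls in colon became 4 and 2 without the filter, 32 and 43 with 12 libraries in one fit, and 2 to 20 and 1 to 43 when 1 library was left out. In bladder 15 and 40 became 2 to 15 and 8 to 36 when 1 was left out, and 25 higher in one fit of 12 libraries. For the interaction, 4 and 5 became 1 to 12 and 3 to 16, and 3 lower by plain eBayes. With 3 mice a group and no counts, only differences well beyond the spread between mice could pass.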
